A study of Mus musculus with 7 samples.

Results

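The microRNAs (miRNAs) mmu-miR-146a-5p, mmu-miR-146b-5p and mmu-miR-155-5p were followed across 4 groups of CD8+ T cells. They were chosen by name, as the main arms of the miR-146 and miR-155 genes, and are 3 of the 1978 mature mouse miRNAs in the deposited table. The cells came from spleens of gBT-I mice, in which CD8+ T cells carry a transgenic T cell receptor; all 4 groups share that transgene, and the labels give neither the age in days nor any treatment. CD44hi CD122hi cells, called virtual memory (VM) in the field because they bear memory markers without having met antigen, and CD44lo CD122lo cells, called true naive (TN), were sorted from neonatal and from adult animals. There were 2 adult VM, 2 adult TN, 2 neonatal VM libraries and 1 neonatal TN library, so neonatal TN values carry no SD. Whether libraries of a group are from separate animals is not in the labels; p-values here reflect variation between libraries that may be only technical.

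MiR-146a and miR-146b are repressors of the NF-kB pathway: they lower TRAF6 and IRAK1, which carry receptor signals to NF-kB. Transcription of the miR-146a gene is itself raised by NF-kB, which closes a negative feedback loop. In T cells, miR-146a limits the strength and length of the response to T cell receptor signals. MiR-155 is cut from the Bic (Mir155hg) transcript, whose transcription T cell receptor signals switch on through NF-kB and AP-1; it lowers SOCS1 and the phosphatase SHIP1, and CD8+ T cells need it for full effector responses and for their response to cytokines.

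The mature sequences are shown because the first pair differ so little that a read can fit both names. They are RefSeq entries on GRCm38.p6, matched by name for 3 of 3 members, written 5′ to 3′ with the seed (bases 2 to 8, which pair with targets) in capitals.

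miR-146a-5p: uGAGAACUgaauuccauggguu
miR-146b-5p: uGAGAACUgaauuccauaggcu
miR-155-5p: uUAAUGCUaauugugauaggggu

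MiR-146a-5p and miR-146b-5p have the same seed and are identical over their first 17 bases. Over 22 bases they differ at 2, G18A and U21C (the miR-146a-5p base, the position from the 5′ end, then the miR-146b-5p base). Among 1679 deposited names with a RefSeq mature sequence, these 2 are the names with the seed GAGAACU, and miR-155-5p is the 1 name with the seed UAAUGCU. The hairpins that the arms are cut from are far less alike, as their sequences show with the 5p arm in capitals.

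Mir146: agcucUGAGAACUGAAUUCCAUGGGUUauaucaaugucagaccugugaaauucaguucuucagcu
Mir146b: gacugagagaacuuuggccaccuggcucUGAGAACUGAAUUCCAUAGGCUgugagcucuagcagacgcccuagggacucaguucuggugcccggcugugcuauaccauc
Mir155: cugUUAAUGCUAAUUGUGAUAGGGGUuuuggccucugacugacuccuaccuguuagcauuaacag

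On GRCm38 the Mir146 hairpin (the miR-146a gene; chromosome 11, 43374397 to 43374461, minus strand) lies in no other GENCODE M21 gene. The Mir146b hairpin (chromosome 19, 46342762 to 46342870, plus strand) lies within the span of the protein-coding gene Mfsd13a, in no exon of it. The Mir155 hairpin (chromosome 16, 84714140 to 84714204, plus strand) lies in an exon of the lincRNA Mir155hg. The genes of the miR-146 pair are thus on different chromosomes, and a count for either name stands for its own locus only as far as reads were told apart at the last bases.

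Library totals ran from 1577031 to 3278451 counts. Levels are given as CPM, the share of a library that a miRNA takes after the total is scaled by its TMM factor. They compare 1 miRNA between libraries; levels of different miRNAs are not on 1 scale, because small RNA ligation favours some sequences. The lymphocyte miRNAs miR-150-5p, miR-142a-5p, miR-142a-3p, miR-342-3p and miR-181a-5p summed to 166106 to 592966 CPM, against 0.989 to 15.9 for the 2 myeloid miRNAs, with miR-223-3p at no more than 15.6. Summed levels were 80.0 to 298.2 CPM for 4 erythroid miRNAs (nearly all miR-486a-5p, with miR-451a at no more than 9.65), 8.10 to 75.8 for 2 endothelial and megakaryocyte miRNAs, 15.7 to 98.4 for 7 stromal and muscle miRNAs (miR-214-3p and miR-1a-3p at 0 in all 7 libraries) and 257 to 487 for 3 epithelial miRNAs, mostly miR-141-3p. In bulk libraries such as these, fewer cells of a type and less RNA per cell cannot be told apart.

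MiR-146a-5p, which lowers TRAF6 and IRAK1, was high in adult VM cells and near 1 low level in both TN groups. It stood at 2819 and 2032 CPM in the adult VM libraries, 372 and 471 in adult TN, 750 and 841 in neonatal VM and 438 in neonatal TN. No adult VM library overlapped any other group, and the neonatal VM libraries lay between adult VM and TN. With TMM factors the neonatal TN value fell between those of the 2 adult TN libraries. As CPM of the library total it lay above both (471 against 335 and 368). By count miR-146a-5p ranked 36th and 42nd among all names in the adult VM libraries and between 63rd and 87th in the other 5.

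**Figure D1:**
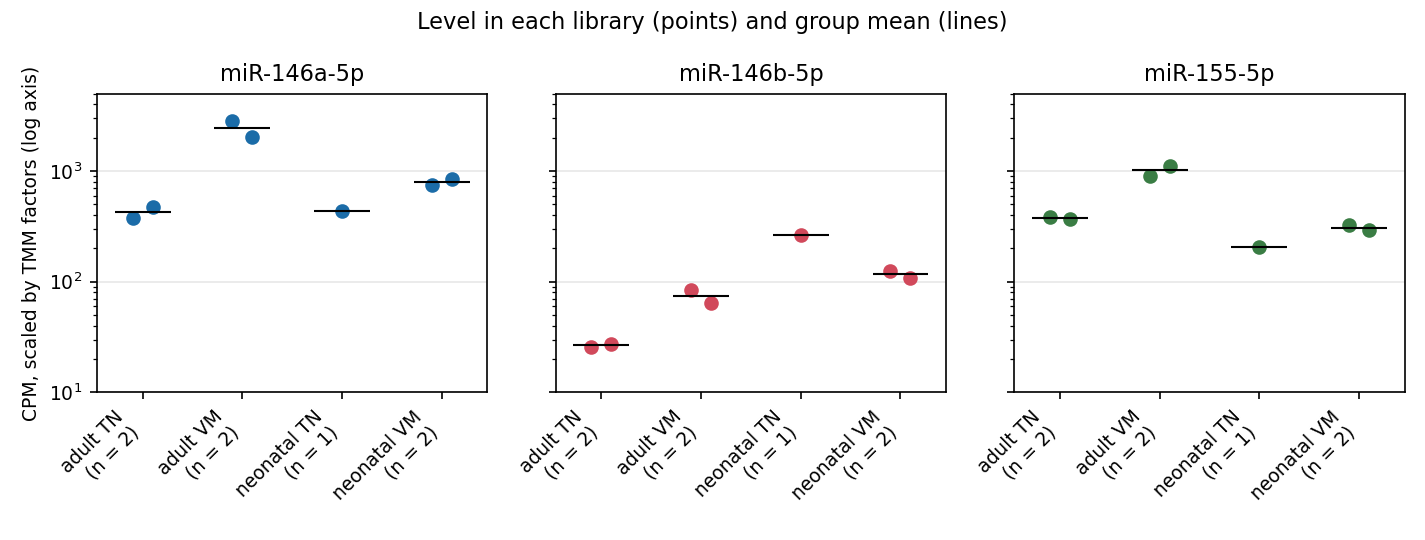
CPM scaled by TMM factors (log axis) of miR-146a-5p, miR-146b-5p and miR-155-5p in the 4 groups, with a point for each library and a line at the group mean. MiR-146a-5p and miR-155-5p peak in adult VM cells (means 2426 and 1013 CPM), miR-146b-5p in the neonatal TN library (262 CPM).

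In adult cells miR-146a-5p rose 5.75-fold from TN to VM (422 ± 70.0 to 2426 ± 557 CPM, mean ± SD, n = 2 each; log2 fold change 2.52 with SE 0.23 and edgeR adjusted p = 5.92e-06), the 10th largest change by size of 288 tested miRNAs. All 18 alternatives called this difference, with log2 fold changes of 2.23 to 2.65. In neonatal cells the difference was 0.86 (SE of 0.27 with edgeR adjusted p = 0.0715, range over alternatives 1.87e-06 to 0.406) between 438 CPM in TN and 796 ± 64.3 in VM (n = 2). It was called without adult VM replicates 1 (0.86, edgeR adjusted p = 0.0038) and 2 (0.84, 4.82e-06), and 8 of 17 alternatives left it uncalled. The subset effect was 1.66 smaller in neonatal than in adult cells on the log2 scale (interaction -1.66 with SE 0.34 and edgeR adjusted p = 0.00997). That call was lost without adult TN replicate 1 (-1.42, edgeR adjusted p = 0.137), adult TN replicate 2 (-1.70, 0.104) or neonatal VM replicate 1 (-1.47, 0.068), with a range over alternatives of 5.86e-14 to 0.137.

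In VM cells miR-146a-5p was 3.05-fold lower in neonatal than in adult libraries (log2 fold change -1.61 with SE 0.22 and edgeR adjusted p = 7.75e-05), and it was called lower in all 18 alternatives. In TN cells the neonatal library differed by 0.05 (SE of 0.26 with edgeR adjusted p = 0.902), a value that took either sign with the scaling (0.42 under library totals and -0.25 under upper quartile factors). The averages over both subsets and both ages were -0.91 for neonatal against adult (SE of 0.34 with edgeR adjusted p = 0.0515) and 1.82 for VM against TN (SE of 0.36 with edgeR adjusted p = 0.0127, range over alternatives 6.11e-12 to 0.0697); they mix effects of unequal size. The average over ages was 1.48 and 1.71 without adult TN replicates 1 and 2 and was then not called (edgeR adjusted p = 0.0697 and 0.063). The age average, just above the threshold, was called at -1.19 (edgeR adjusted p = 0.0314) without adult TN replicate 1. Among markers of other cells, the myeloid sum was also highest in adult VM (6.45 and 15.9 CPM, against 0.989 to 4.18 in the other 5 libraries), as was the erythroid sum (250.5 and 298.2, against 80.0 to 230.4). The epithelial sum was too (405.2 and 487.4, against 256.7 to 313.5), while the endothelial and stromal sums were highest in neonatal libraries. Of 8 tested markers, 5 were called higher and 0 lower in adult VM than adult TN (23.6% of all tested miRNAs were called higher). The 5 were miR-126a-5p, miR-141-3p, miR-143-3p, miR-205-5p and miR-486a-5p. The part of these markers in the level of miR-146a-5p was not tested.

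MiR-146b-5p, with the same seed, had another pattern. The adult TN libraries had 25.9 and 27.4 CPM, the adult VM libraries 84.6 and 64.3, the neonatal VM libraries 125 and 108, and the neonatal TN library 262. TN cells held both the lowest and the highest values. The counts behind these levels ran from 47.5 in adult TN replicate 1 to 842.5 in neonatal TN; that 1 library's share of 0.0283% has a 95% Wilson interval of 0.0264 to 0.0302%, which covers counting error only.

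The neonatal TN library had 9.82-fold more miR-146b-5p than adult TN (26.7 ± 1.05 CPM, n = 2; log2 fold change 3.30 with SE 0.30 and edgeR adjusted p = 5.55e-06), the 21st largest difference between ages in TN cells. This call held in all 16 alternatives, with log2 fold changes of 2.99 to 3.66. In VM cells it was 1.56-fold higher in neonatal libraries (116 ± 12.0 against 74.5 ± 14.3 CPM, n = 2 each; log2 fold change 0.64 with SE 0.25 and edgeR adjusted p = 0.0454, range over alternatives 0.00274 to 0.227). It was not called with the replicate block (0.65, edgeR adjusted p = 0.0655), nor without adult VM replicate 2 (0.51, 0.0993), adult TN replicates 1 (0.60, 0.0974) and 2 (0.65, 0.0644) or neonatal VM replicates 1 (0.55, 0.227) and 2 (0.75, 0.0962). Averaged over subsets, miR-146b-5p was 3.4-fold higher in neonatal cells (log2 fold change 1.77 with SE 0.50 and edgeR adjusted p = 0.0171, range over alternatives 1.5e-07 to 0.0858), with values of 1.38 and 1.43 and no call without adult TN replicates 1 and 2 (edgeR adjusted p = 0.0858 and 0.0584). Without the neonatal TN library no average over subsets can be formed.

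The subset effect of miR-146b-5p had opposite signs at the 2 ages. In adult cells it rose 2.79-fold from TN to VM (log2 fold change 1.48 with SE 0.27 and edgeR adjusted p = 0.00137), a call kept in all 17 alternatives. In neonatal cells VM cells held 2.26-fold less than the TN library (log2 fold change -1.18 with SE 0.29 and edgeR adjusted p = 0.0187, range over alternatives 6.16e-06 to 0.202). The difference between these effects was -2.65 (SE of 0.39 with edgeR adjusted p = 0.00111), the 10th largest interaction of 288 by size, and was called in all 15 alternatives (-2.75 to -2.25). The neonatal difference was not called under library totals (-0.93, edgeR adjusted p = 0.0605), upper quartile factors (-0.80, 0.0871) or the replicate block (-1.08, 0.0689), nor without adult TN replicates 1 (-1.22, 0.0587) and 2 (-1.10, 0.0751) or neonatal VM replicates 1 (-1.20, 0.0752) and 2 (-1.01, 0.202). The average over ages, 0.27 (SE of 0.51 with edgeR adjusted p = 0.753), joins opposite effects, and it was below 0 when adult VM replicate 1 or adult TN replicates 1 and 2 were left out, at -0.03, -0.17 and -0.06. Markers of other cells moved as well. Of 8 tested, 3 were higher and none lower in neonatal than in adult TN: miR-143-3p (stromal; log2 fold change 3.30 with SE 0.47 and edgeR adjusted p = 1.37e-04), miR-126a-5p (endothelial; 3.46, 1.31e-04) and miR-205-5p (epithelial; 3.84, 0.00203). The other arm miR-126a-3p (0.80, 0.284) and the stromal miR-10b-5p (0.87, 0.362) did not pass. The interaction was called for 2 of the 8, both negative: miR-143-3p (-2.46, edgeR adjusted p = 0.03) and the erythroid miR-486a-5p (-2.36, 0.00111). MiR-486a-5p also shared the opposite subset effects of miR-146b-5p (0.93, edgeR adjusted p = 0.00862, in adult and -1.43, 0.00492, in neonatal cells). The summed stromal and muscle list was highest in neonatal TN (98.4 CPM, against 15.7 to 71.2 in the other 6 libraries). These markers were named after their values were seen, and their part in the pattern of miR-146b-5p was not tested.

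The balance of the miR-146 pair does not depend on the scaling between libraries. Of the counts of both names, miR-146b-5p made up 2.91% and 3.06% in adult VM, 6.45% and 5.50% in adult TN, 14.2% and 11.3% in neonatal VM and 37.5% in neonatal TN (95% Wilson interval 35.5 to 39.5%). All 3 neonatal libraries lay above all 4 adult ones, and TN lay above VM at both ages. Set against miR-146a-5p, there were 12.8 to 59.9 counts of miR-146b-5p per 100 in neonatal and 3.0 to 6.90 in adult libraries, a mean log2 difference of 2.40 (two-sided exact permutation test, p = 0.0571, which is the smallest that 3 against 4 libraries allow; Benjamini-Hochberg adjusted over 4 such tests, 0.229). Taken over both ages, VM minus TN in this ratio was -1.0 on the log2 scale (two-sided exact permutation test, p = 0.514, adjusted 0.514). That test ignored age, so it cannot judge the difference between the subsets within an age.

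**Figure D2:**
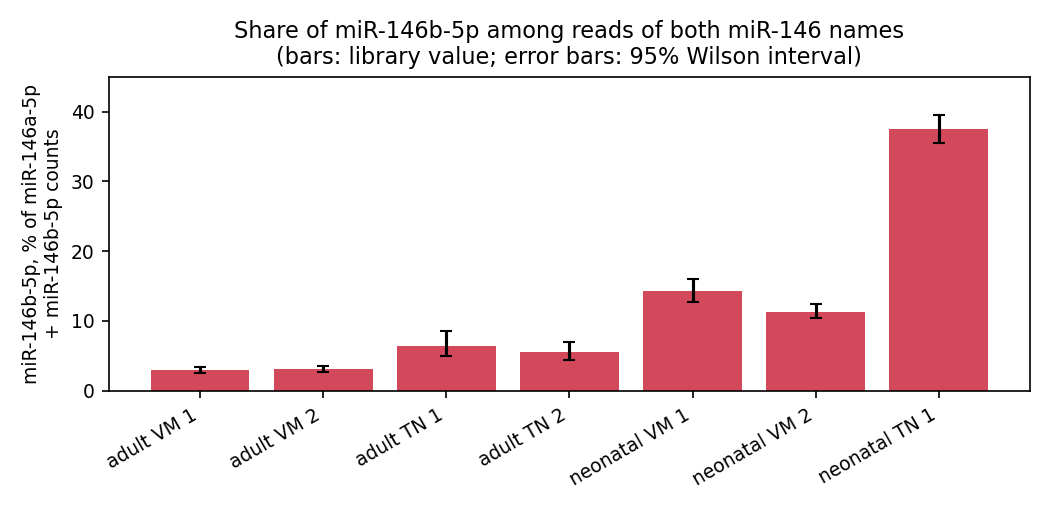
Share of miR-146b-5p in the summed counts of miR-146a-5p and miR-146b-5p, in percent, as a bar for each of the 7 libraries with its 95% Wilson interval. The share runs from 2.91% in adult VM replicate 1 to 37.5% in the neonatal TN library, and every neonatal library is above every adult one.

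The deposited counts of the pair are linked. In 5 libraries the counts of miR-146a-5p and miR-146b-5p both ended in exactly 0.5, and in the other 2 both were whole, while miR-155-5p was whole in all 7. Some reads thus appear to have been divided equally between the names; how many, and its part in the pattern of miR-146b-5p, was not tested. Summed as 1 feature, which avoids the division, miR-146a-5p and miR-146b-5p stood at 2500 ± 571 CPM in adult VM, 448 ± 71.1 in adult TN, 912 ± 52.6 in neonatal VM (n = 2 each) and 700.1 in neonatal TN. The sum was higher in adult VM than adult TN (log2 fold change 2.48 with SE 0.23 and edgeR adjusted p = 7.61e-06), lower in neonatal than adult VM (-1.44 with SE 0.22 and edgeR adjusted p = 1.82e-04), and did not pass between the neonatal subsets (0.39 with SE 0.27 and edgeR adjusted p = 0.406) or between the ages in TN (0.65 with SE 0.26 and edgeR adjusted p = 0.0555).

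MiR-155-5p, the arm that targets SOCS1 and SHIP1, was highest in adult VM cells, as miR-146a-5p was, and lower in neonatal cells of both subsets. It stood at 907 and 1118 CPM in adult VM, 380.1 and 367 in adult TN, 322 and 294 in neonatal VM and 206 in neonatal TN. The 4 groups did not overlap, and with TMM factors the neonatal VM libraries lay below both adult TN ones. The order of these 2 groups depended on the scaling. As CPM of the library total, neonatal VM lay above adult TN (413 and 374 against 342 and 287).

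In VM cells miR-155-5p was 3.29-fold lower in neonatal than in adult libraries (308 ± 19.8 against 1013 ± 149 CPM, n = 2 each; log2 fold change -1.72 with SE 0.20 and edgeR adjusted p = 2.32e-05) and in TN cells 1.81-fold lower (206 CPM against 374 ± 8.98, n = 2; log2 fold change -0.86 with SE 0.25 and edgeR adjusted p = 0.0149, range over alternatives 4.43e-06 to 0.0997). The difference in TN cells did not pass under library totals (-0.50, edgeR adjusted p = 0.0997). Averaged over subsets the neonatal level was lower by 2.58-fold (log2 fold change -1.36 with SE 0.22 and edgeR adjusted p = 9.96e-04), and both the average and the difference in VM cells were called in every alternative run.

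From TN to VM, miR-155-5p rose 2.71-fold in adult cells (log2 fold change 1.44 with SE 0.20 and edgeR adjusted p = 2.58e-04), called in all 17 alternatives. In neonatal cells the difference was 0.58 (SE of 0.25 with edgeR adjusted p = 0.174, range over alternatives 0.0068 to 0.498), and it was called without adult VM replicate 2 (0.55, edgeR adjusted p = 0.0121), under library totals (0.82, 0.0463) and under upper quartile factors (0.96, 0.0212). The interaction, -0.86 (SE of 0.31 with edgeR adjusted p = 0.111), did not pass, so a difference between the ages was not shown for miR-155-5p; it was called without adult VM replicate 1 (-0.98, edgeR adjusted p = 0.0135; range over alternatives 0.0135 to 0.446). Averaged over ages the rise was 2.12-fold (log2 fold change 1.09 with SE 0.22 and edgeR adjusted p = 0.014, range over alternatives 1.97e-04 to 0.0736), and it was not called without adult TN replicates 1 (0.92, 0.0736) and 2 (1.0, 0.0655). Per 100 counts of miR-146a-5p there were 32.2 and 55.0 of miR-155-5p in adult VM, 102 and 78.0 in adult TN, 43.0 and 35.0 in neonatal VM and 47.1 in neonatal TN. Some markers of other cells moved with miR-155-5p too: miR-486a-5p was lower in neonatal than adult VM (-1.73, edgeR adjusted p = 7.70e-05) and higher in adult VM than adult TN. The epithelial miR-141-3p had the same directions (-0.71, edgeR adjusted p = 0.0117, and 0.65, 0.0257). Of 8 markers tested between the ages in VM, 2 were called lower and 2 higher. The higher ones were miR-126a-3p (1.55, edgeR adjusted p = 0.0107) and miR-126a-5p (1.41, 0.00605). The myeloid sum was highest in adult VM, as given above. The part of these markers in the level of miR-155-5p was not tested. The ratio to miR-146a-5p did not separate neonatal from adult libraries (two-sided exact permutation test, p = 0.286) or VM from TN (p = 0.114). The age test ignored subset and the subset test ignored age.

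Side by side, the 3 miRNAs rose together in 1 comparison. From TN to VM in adult cells 3 of 3 were called higher, where 39.2% of all 288 tested miRNAs were called and 23.6% were called higher. Averaged over ages 2 of 3 were called, both higher (24.7% of all tested were called, 10.8% higher). Between neonatal subsets 1 of 3 was called, miR-146b-5p, which was lower in VM (9.72% of all tested were called). The interaction was called for 2 of 3, both negative, where 7.99% of all tested were called and 6.25% were called negative. Between neonatal and adult cells, 2 of 3 were called over both subsets (53.8% of all tested), 2 of 3 in TN (47.9%) and 3 of 3 in VM (53.8%). With 3 miRNAs, in a table where about as many were called as not, the age counts do not stand apart from the background. The subset and interaction counts carry no test either, since the members were chosen with earlier results of these data known. Nor are the 3 independent, because some reads appear to have been divided between the miR-146 names. The split of all calls moved with the scaling: averaged over ages it was 31 higher and 40 lower with TMM but 59 and 27 under library totals, and for the interaction 5 and 18 with TMM but 18 and 12 under upper quartile factors.

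**Figure D3:**
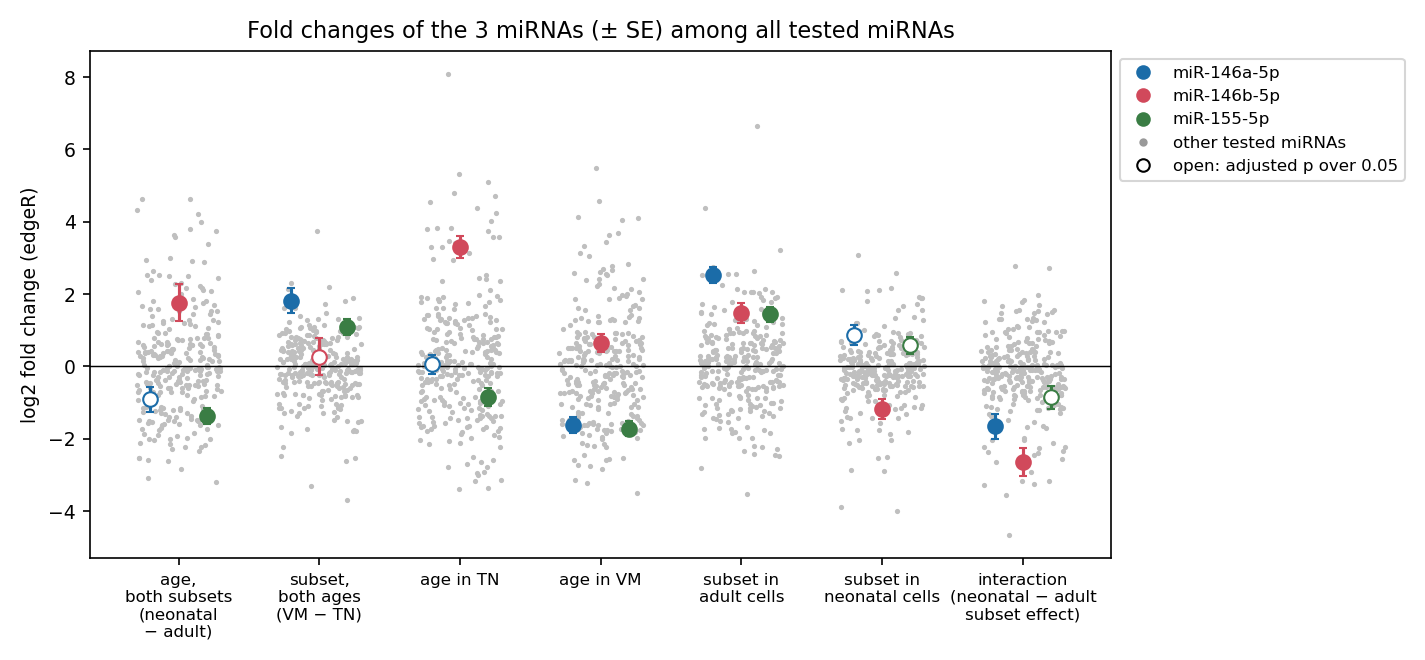
Log2 fold changes (edgeR) of miR-146a-5p, miR-146b-5p and miR-155-5p, with SE, in the 7 comparisons, among all 288 tested miRNAs (grey points, spread sideways at random); filled symbols have an adjusted p of at most 0.05 and open ones do not. In adult cells the 3 lie at 2.52, 1.48 and 1.44 for VM against TN, while in neonatal cells miR-146b-5p lies at -1.18.

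Neonatal minus adult VM, miR-146a-5p and miR-155-5p differed by -1.61 and -1.72 and miR-146b-5p by 0.64. All age effects are measured against the TMM centre. Under library totals the median of all tested miRNAs for neonatal against adult was 0.40, against -0.05 with TMM, and the directions of all called age effects of the 3 miRNAs were the same under both. Over the 7 libraries, which share their groups, Pearson's r of log2 CPM was 0.846 between miR-146a-5p and miR-155-5p, 0.146 between miR-146a-5p and miR-146b-5p and -0.319 between miR-146b-5p and miR-155-5p.

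The 3p arms of the same hairpins were scarce. MiR-146a-3p had a count of 0 in all 7 libraries, which allows up to 0.915 to 1.90 CPM of the library total (3 counts). MiR-146b-3p summed to 8 counts over all libraries, 0.396% of the reads of both its arms. MiR-155-3p had 7 to 32 counts in a library and 1.30% of the reads of both arms over all libraries, between 0.615% and 2.77% in single libraries. It was deep enough to be tested, and none of its 7 comparisons passed (edgeR adjusted p from 0.112 to 0.71).

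Other miRNAs reported to act on the NF-kB pathway or to be induced with it did not follow 1 pattern. Of a list of 18, 12 were tested. From TN to VM in adult cells 6 rose, 3 fell and 3 did not pass, with a median log2 fold change of 0.38 against 0.09 over all 288 tested miRNAs, of which 39.2% were called and 23.6% rose. In neonatal cells 3 rose, 2 fell and 7 did not pass (median -0.03 against -0.11; 9.72% of all tested were called). Averaged over ages 3 rose, 3 fell and 6 did not pass (median 0.55 against 0.01; 24.7% of all tested were called). In neonatal against adult cells 4 were higher, 1 was lower and 7 did not pass (median 0.22 against -0.05; 53.8% of all tested were called). Neonatal TN cells had 4 higher and 2 lower than adult TN, and neonatal VM cells 5 higher and 1 lower than adult VM (medians 0.34 and 0.34 against 0.04 and -0.08; 47.9% and 53.8% of all tested were called). The interaction gave 1 positive and 1 negative call (median -0.21 against -0.14; 7.99% of all tested).

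Several of these had the direction of miR-146a-5p in VM cells. MiR-21a-5p, which lowers PDCD4, rose in VM cells at both ages, with adult VM at 90970 ± 27443 and adult TN at 15587 ± 1091 CPM (n = 2 each), and neonatal VM at 66185 ± 5165 (n = 2) and the neonatal TN library at 20020 (log2 fold change over both ages 2.21 with SE 0.24 and edgeR adjusted p = 4.12e-04). MiR-221-3p, a repressor of the cell cycle inhibitor p27, had both directions of miR-155-5p: it was higher in VM cells (0.93 with SE 0.21 and edgeR adjusted p = 0.0192) and lower in neonatal cells (-0.99 with SE 0.21 and edgeR adjusted p = 0.00403). MiR-15a-5p, which lowers BCL2, was higher in VM cells (0.62 with SE 0.17 and edgeR adjusted p = 0.0311).

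Others had different patterns. MiR-125a-5p, which is known to lower the NF-kB inhibitor A20, was lower in VM cells averaged over ages (-1.16 with SE 0.33 and edgeR adjusted p = 0.0364). The difference was -1.72 in adult cells (SE of 0.24) and -0.22 in neonatal cells (SE of 0.284). Its positive interaction of 1.5 (SE of 0.38 with edgeR adjusted p = 0.0325) was opposite in sign to those of the miR-146 pair. MiR-132-3p, induced through CREB, and miR-181b-5p, of the family that tunes T cell receptor sensitivity, were lower in VM cells (-2.24 and -2.52) and higher in neonatal cells (1.17 and 1.46). MiR-301a-3p, known to lower an NF-kB repressing factor, shared 5 called directions with miR-146b-5p: it was higher in neonatal cells over both subsets (3.39 with SE 0.39 and edgeR adjusted p = 1.90e-04), in TN (4.38) and in VM cells (2.67), higher in adult VM than adult TN (1.88 with SE 0.29 and edgeR adjusted p = 0.00115) and had a negative interaction (-1.72 with SE 0.43 and edgeR adjusted p = 0.0408). Between neonatal subsets, where miR-146b-5p was lower in VM, it differed by 0.17 with SE 0.334 (edgeR adjusted p = 0.809). MiR-210-3p, a hypoxia-induced miRNA, was higher in neonatal cells too (2.92 with SE 0.48 and edgeR adjusted p = 0.00102), at 34.9 CPM in neonatal TN against 1.51 ± 0.922 (n = 2) in adult TN. It was also higher in adult VM than adult TN (2.24 with SE 0.613 and edgeR adjusted p = 0.0136).

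**Figure D4:**
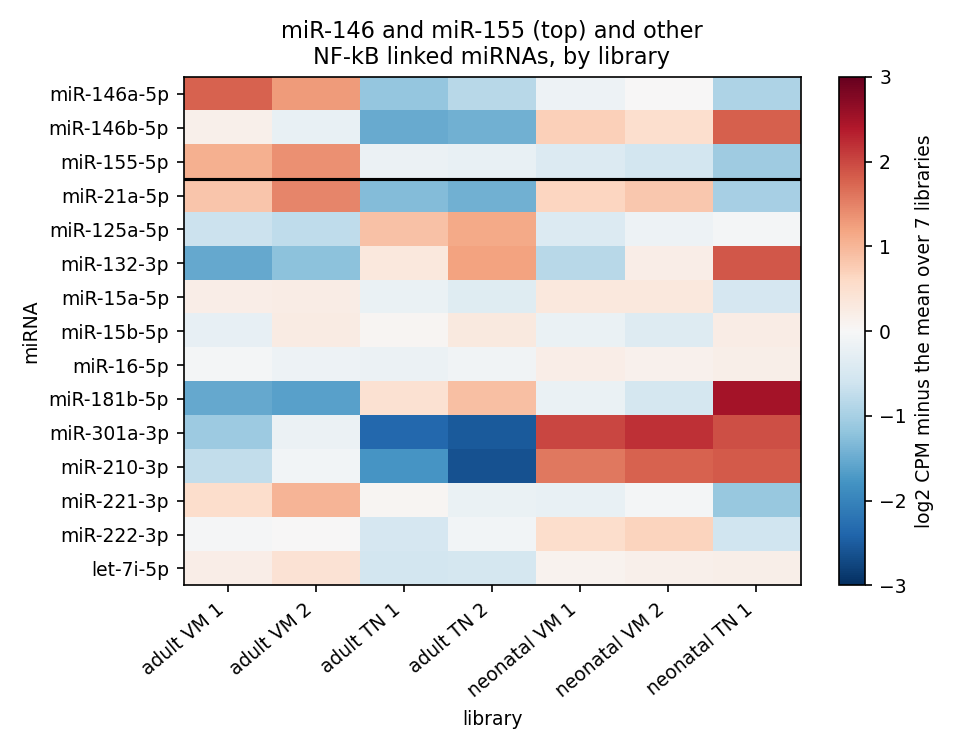
Log2 CPM of each miRNA minus its mean over the 7 libraries (colour, from -3 to 3), for miR-146a-5p, miR-146b-5p and miR-155-5p above the line and the 12 tested miRNAs of the NF-kB linked list below it, by library. MiR-146a-5p and miR-155-5p are highest in the 2 adult VM libraries, while miR-146b-5p is highest in the neonatal TN library, as are miR-132-3p, miR-181b-5p and miR-210-3p.

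A second list held 15 miRNAs known to rise on T cell activation, 5 of them also on the NF-kB list, and 14 were tested. Of these, miR-17-5p, miR-18a-5p, miR-19a-3p, miR-19b-3p and miR-20a-5p are of 1 gene cluster. MiR-96-5p, miR-182-5p and miR-183-5p are of another, so the counts below are not of independent miRNAs. The list was chosen with earlier results of these data known. From TN to VM, 9 rose and 1 fell in adult cells (median 1.19 against 0.09 over all tested, of which 39.2% were called and 23.6% rose). In neonatal cells 2 rose and 1 fell (median 0.09 against -0.11; 9.72% of all tested were called), and over both ages 2 were higher and 1 lower in VM (median 0.72 against 0.01; 24.7%). Neonatal TN cells had 5 higher and 1 lower than adult TN (median 0.65 against 0.04; 47.9%), and neonatal VM cells 5 higher and 2 lower than adult VM (median -0.19 against -0.08; 53.8%). Over both subsets 4 were higher and 1 lower in neonatal cells (median 0.20 against -0.05; 53.8%). The interaction was called for 2, both negative (median -0.85 against -0.14; 7.99% of all tested were called); they were miR-182-5p and miR-183-5p, named here after their values were seen.

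The 165 other miRNAs averaging 50 CPM or more were compared with each member. The patterns most like each member over the 7 libraries, by Pearson's r of log2 CPM, were as follows. For miR-146a-5p they were miR-200a-3p (0.963), miR-203-3p (0.953) and miR-3068-3p (0.938). For miR-146b-5p they were miR-183-5p (0.94), miR-24-3p (0.89) and miR-301a-3p (0.889). For miR-155-5p they were miR-101a-3p (0.98), let-7g-5p (0.968) and miR-1843a-5p (0.968). These libraries fall into 4 groups, so the values describe likeness of group patterns and carry no test.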

How the data were processed

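Small RNA was sequenced from CD8+ T cells enriched with anti-CD8 beads and sorted at over 95% purity, with Illumina TruSeq libraries, per the labels' protocols. The authors deposited estimated counts per mature arm and precursor, made on mm10 per the submitters' processing notes; for the aligner and the counting tool, names are not given in the sources used here. Of nonzero values summed per name, 84.0% lay within 0.02 of a whole number. Each member stood on 1 line, and sums were rounded.

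MiRNAs reaching 10 CPM in 2 or more libraries (288, all 3 members among them) were tested across the whole table in edgeR 4.0.16 (R 4.3.3; TMM factors, quasi-likelihood test, robust dispersions, Benjamini-Hochberg adjustment at 0.05 per comparison). Averages came from an additive model (4 residual degrees of freedom), other comparisons from group means (3). All groups share 1 estimate of spread, so neonatal TN is assumed to vary like the rest. SE are the log2 fold change over the square root of F. Other settings tried were scaling by RLE, by library totals or by upper quartiles, no filter, a 100 CPM filter, DESeq2 1.42.0, limma voom 3.58.1, the replicate number as a block, only the libraries compared, the largest line per name and each library left out. Summing miR-146a-5p with miR-146b-5p was chosen after seeing the data. The fits were first tested on simulated data. Members and lists were chosen with earlier results of these data known. Named miRNAs were the members, their other arms, the 3 most alike per member, and NF-kB list members called with age, subset or interaction. Markers of cell types and clustered miRNAs of the activation list were named as well. Figures used matplotlib 3.10.9; permutation tests used scipy 1.17.1.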

Additional observations from a re-analysis of the deposited data

Results flagged for a closer look

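The subset effect differed by age for 2 of the 3 miRNAs in the test of the difference itself. Among all 288 tested miRNAs, 7.99% were called in that test and 6.25% were called negative. For miR-146a-5p the log2 effect of VM against TN in neonatal cells minus that in adult cells was -1.66 (edgeR adjusted p = 0.00997). That call was lost without adult TN replicate 1 (-1.42), adult TN replicate 2 (-1.70) or neonatal VM replicate 1 (-1.47). For miR-146b-5p the same difference was -2.65 (edgeR adjusted p = 0.00111), with opposite signs of the subset effect at the 2 ages. Both rest on 1 neonatal TN library, whose own variation was not measured.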

How the results depend on the processing

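Of 21 results (3 miRNAs in 7 comparisons), 8 kept their direction and side of the threshold in every alternative run, and of 346 alternative values 290 did. As log2 fold changes, the age average of miR-146a-5p was called at -0.99 (upper quartile factors), -1.05 (no filter), -0.85 (DESeq2), -0.98 (limma voom) and -0.97 (largest line per name). Its age effect in TN cells turned to -0.25 (upper quartile), -0.12 (no filter) and -0.061 (largest line), uncalled throughout. Its neonatal subset effect was called at 0.93 (RLE), 1.11 (library totals), 1.24 (upper quartile), 0.92 (no filter), 0.93 (DESeq2), 0.84 (largest line) and 0.94 (only the libraries compared). That of miR-155-5p was called at 0.82, 0.96 and 0.65 (library totals, upper quartile, only the libraries compared), and that of miR-146b-5p was not at -0.93, -0.80 and -1.08 (library totals, upper quartile, replicate block). MiR-155-5p with age in TN was not called under library totals (-0.50), nor miR-146b-5p with age in VM at 0.53, 0.65 and 0.62 (no filter, replicate block, only the libraries compared).

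With each library left out, ranges for miR-146a-5p were -1.58 to -0.67 (age average), 1.48 to 2.52 (subset average), -0.23 to 0.11 (age in TN), 0.83 to 1.02 (subset in neonatal cells) and -1.79 to -1.37 (interaction). For miR-146b-5p they were 0.67 to 2.13 (age average), -0.17 to 1.47 (subset average), 0.51 to 0.84 (age in VM) and -1.22 to -1.01 (subset in neonatal cells). For miR-155-5p they were 0.86 to 1.43 (subset average), 0.54 to 0.71 (subset in neonatal cells) and -0.98 to -0.61 (interaction). The cause was not tested. Without the neonatal TN library the averages are the VM age effect and the adult subset effect alone, which set the ends -1.58, 2.52, 0.67, 1.47 and 1.43 of these ranges; age in TN, the neonatal subset effect and the interaction could not be fitted.

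Replicate numbers were shared by 3 groups, but same-numbered libraries did not deviate together (r of 0.02, -0.16 and 0.14 over 288 miRNAs), so the number was not taken as a pairing. The replicate block changed no other call of the 3 miRNAs than those above. With 3 to 4 residual degrees of freedom, small differences were not detectable.

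Counts of all called miRNAs moved by over 1.5 times as follows. The subset average (71) gave 107 with no filter, 41 at 100 CPM and 42 with the replicate block, and 18 to 112 with a library left out. The adult subset count (113) fell to 54 and 23 without adult TN replicates 1 and 2, and age in TN (138) to 86 and 83; the 100 CPM filter, with fewer miRNAs tested, gave 79, 69 and 93 for the age average, age in TN and age in VM. The neonatal subset count (28) was 52 with upper quartile factors and with no filter, 80 with only the libraries compared and 16 to 77 with a library left out. The interaction count (23) was 43 with no filter, 38 with DESeq2, 15 with limma voom and 6 to 86 with a library left out.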
